A study of Rattus norvegicus with 20 samples.

Results

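Genes of the extracellular matrix were followed in adipose tissue of food-restricted rats: the collagen chains, the components of the elastic fibre, the adhesive and matricellular proteins, the small leucine-rich proteoglycans and the enzymes that mature collagen. A gene was taken if a probe set carried its symbol alone in the platform annotation and the symbol was a collagen chain or 1 of 23 further names, and a gene with several such probe sets was read from the brightest by mean signal. This gave 51 of 10411 genes, 29 of them collagen chains and 22 further genes. Thbs2 was the named gene with no probe set under its symbol in the annotation used here. Of the 51 genes, 38 passed the filter on low signals and were tested. The other 13, namely Col2a1, Col4a4, Col7a1, Col8a1, Col9a1, Col9a2, Col10a1, Col11a1, Col11a2, Col19a1, Col26a1, Col27a1 and Tnc, had mean signals between 1.72 and 22.1 and are not interpreted.

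The animals were male Wistar rats, an outbred laboratory strain, that were purchased at 5 weeks of age and entered the experiment at 6 weeks. They received a powdered purified diet for 1 month or 1 week, at 5%, 10%, 20% or 30% below the recorded intake, or at the full recorded intake as controls, and visceral white fat was dissected when they had been without food for 16 h. Each of the 10 groups is 1 pool of RNA from 5 rats, hybridised to 2 Affymetrix chips, which are technical repeats. The spread between rats was thus not measured, and the p-values below rest on the spread between pools. For the durations this is how their difference varied over the 5 levels, and for slopes how far pools lay from the fitted lines. For restricted against control pools it is the spread left after those groups and duration. Rats of the 1-month groups were also older at dissection. The deposited scale of the chips went with duration and replicate number together, and the labels name no chip set. Duration of the experiment, age and any batch of chips that went with duration cannot be told apart.

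Values are MAS5 signals, in which the software summarises the perfect-match and mismatch probes of a probe set, brought to a trimmed mean of 100 on each of the 20 chips and averaged over the 2 chips of a pool on the log2 scale. Adipocyte markers were high in each pool, with a summed signal of 13184 to 18070 over 7 genes at 1 month and 13042 to 16786 at 1 week. Genes of the exocrine pancreas, a neighbouring organ, stood apart in 2 pools: the sum over 14 genes was 1640 in the 1-week 30% pool and 66192 in the 1-week control pool, against 151 to 205 in the other 8 pools. Lymphocyte markers (11 genes) summed to 187 to 2299 at 1 month and 169 to 2509 at 1 week. Cartilage and bone markers were near the floor, with sums of 22.5 to 44.6. In bulk tissue, fewer cells of a type and less RNA per cell cannot be told apart.

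Fibrillar collagens are triple helices that assemble into the tension-bearing fibres of connective tissue, and type I and type III chains form most of them. Type IV collagen builds the sheet-like basement membrane that surrounds each adipocyte and capillary, type VI collagen forms beaded filaments around adipocytes, and elastin deposited on fibrillin microfibrils gives elastic recoil. Fibroblasts, adipocyte progenitors and adipocytes all secrete matrix in fat, where it has to be remodelled as adipocytes grow or shrink.

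The first comparison set the 5 pools of 1 month against the 5 pools of 1 week at matched restriction. Matrix genes were lower at 1 month across nearly all roles. Of the 38 tested genes 29 were lower at 1 month past an adjusted p of 0.05 (limma, Benjamini-Hochberg over all 9520 probe sets) and 0 were higher, that is 76.3%, where 2.82% of all probe sets tested were called, 2.02% lower and 0.798% higher. At an unadjusted p under 0.05, 32 members were lower and 0 higher, where 10.7% and 8.3% of all probe sets were lower and higher. The median difference of the members was -0.56 on the log2 scale, against -0.01 over all probe sets tested, and 37 of 38 differences were negative, Col8a2 being the exception. The called genes were between 1.33-fold and 3.28-fold lower at 1 month, with a median of 1.58-fold. In 22 of the 38 genes each 1-month pool lay below each 1-week pool, which held for 2.72% of all probe sets tested, and in 0 genes did each lie above, against 1.36%.

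**Figure D1:**
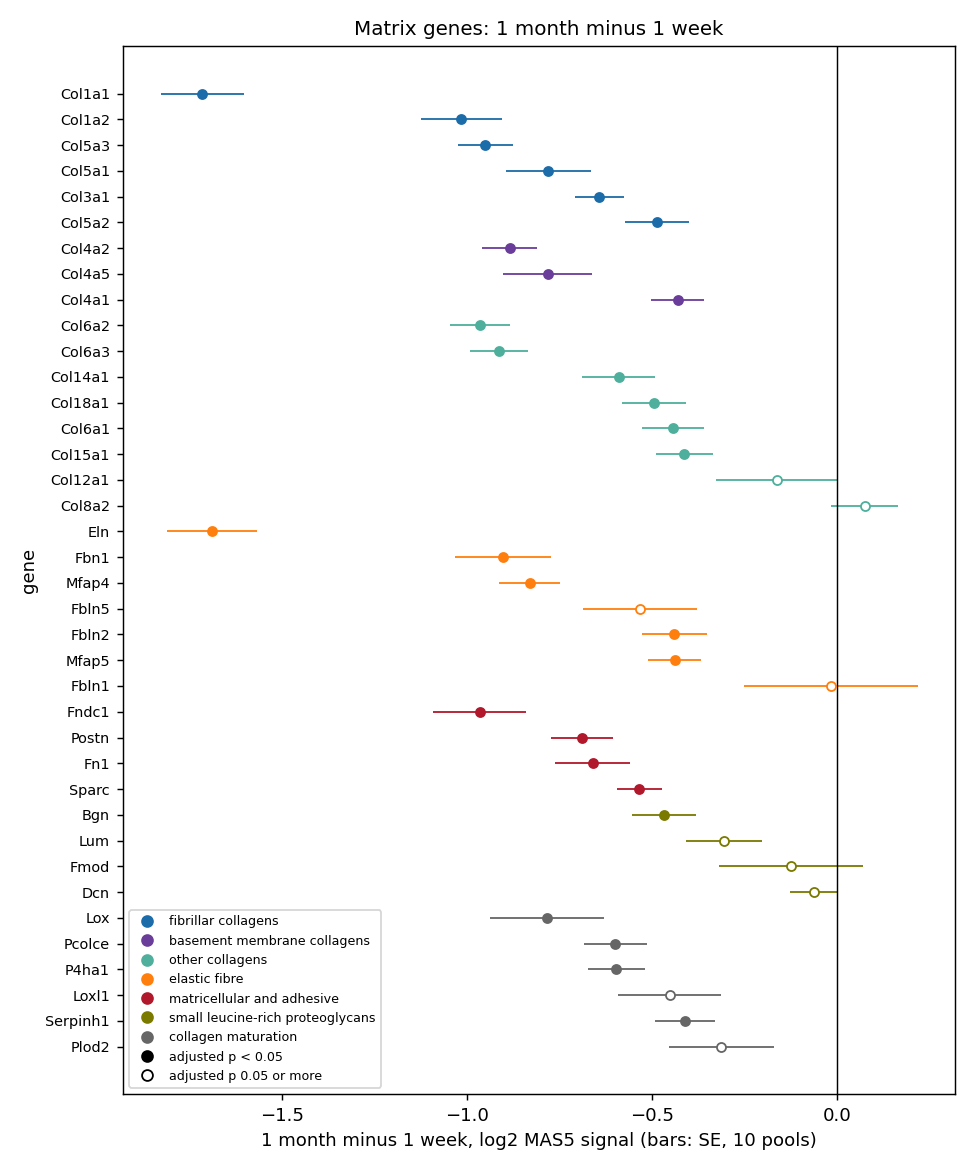
Difference of log2 MAS5 signal, 1 month minus 1 week, for the 38 tested matrix genes, grouped and coloured by role; bars are the standard error of the limma fit over 10 pools and filled points passed an adjusted p of 0.05. All filled points (29 genes) lie left of 0, with Col1a1 (-1.71) and Eln (-1.69) farthest from it, and Col8a2 (0.07) is the one gene to the right.

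All 6 tested fibrillar collagen genes were lower at 1 month (median -0.87), and in all 6 the pools of the 2 durations did not overlap. Col1a1, which encodes the major chain of type I collagen, had signals of 699, 525, 611, 536 and 404 in the 1-month pools at 0, 5, 10, 20 and 30% restriction, against 1583, 2245, 1976, 1783 and 1478 in the 1-week pools; pool values below keep this order. The highest 1-month pool was thus under the lowest 1-week pool, and the difference was -1.71 ± 0.11 (log2, SE; 3.28-fold lower, adjusted p = 0.000826). Its partner chain Col1a2 measured 998, 627, 1021, 851 and 670.2 at 1 month, against 1506, 1612, 1758, 1789.6 and 1612 at 1 week (-1.02 ± 0.11, 2.02-fold lower, adjusted p = 0.00346). The 5% and 30% pools were the lowest at 1 month for both chains. Col3a1, the chain of type III collagen, which is found beside type I in pliable tissues, measured 2914, 2487, 2796, 2795 and 2457 at 1 month, against 4013, 4413, 4286, 4222 and 4026 at 1 week. Its fold was smaller but its pools were close together within each duration (-0.64 ± 0.066, 1.56-fold lower, adjusted p = 0.00293).

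Type V collagen sits in the core of type I fibres and limits their diameter. Its chain Col5a3 measured 399, 305, 346, 297 and 221 in the 1-month pools, against 651, 658, 709, 535 and 460.1 in the 1-week pools (-0.95 ± 0.075, adjusted p = 0.00101). Col5a1 measured 206, 179, 175, 157 and 133 at 1 month, against 243, 366, 335, 253 and 265 at 1 week (-0.78 ± 0.12, adjusted p = 0.0131). Col5a2 had the smallest difference of the fibrillar chains (-0.49 ± 0.086, adjusted p = 0.0249), with 793, 689.7, 834, 869 and 659.6 at 1 month, against 897, 1122, 1174, 1107 and 1081 at 1 week, where the lowest 1-week pool was just above the highest 1-month pool.

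The start region of Col1a2 is shown since this gene had the widest fold of the matched genes; RefSeq (assembly GRCr8) held a start region, 250 bases before to 50 after the start, for 38 of the 51 genes and for 20 of the 29 genes lower at 1 month. Capitals mark a TATAAA at -170 from the annotated start and a CCAAT read on the opposite strand (ATTGG) at -221. The 50 bases after this start open with ATG, the letters of a start codon. Whether it is the start of the transcript was not checked, so both positions are distances from the annotated start alone. The window is chr4:33518307-33518606, plus strand, 5′ to 3′.
Col1a2: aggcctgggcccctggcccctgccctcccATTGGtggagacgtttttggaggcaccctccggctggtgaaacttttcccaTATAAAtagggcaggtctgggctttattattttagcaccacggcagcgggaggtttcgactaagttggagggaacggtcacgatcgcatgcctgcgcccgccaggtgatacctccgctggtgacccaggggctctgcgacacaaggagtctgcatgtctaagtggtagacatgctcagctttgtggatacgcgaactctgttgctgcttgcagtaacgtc
Over the members, TATAAA (either strand) was in 10.5% of the matched start regions, against 14.2% of all 33469; CCAAT was in 26.3%, against 37.5%; and GGGCGG, the core of a GC box, was in 55.3%, against 33.1%. Among the 20 matched genes that were lower at 1 month the shares were 10%, 25% and 55%. These are counts of letters, with no test. No start region is shown or counted for Bgn, Col1a1, Col2a1, Col3a1, Col6a2, Col12a1, Col14a1, Dcn, Eln, Fbln1, Fn1, Lox and Mfap4.

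All 3 tested chains of type IV collagen were lower at 1 month, and their pools did not overlap between durations. Col4a2 measured 460.3, 510.4, 587, 459 and 438 at 1 month, against 759, 909.7, 992, 900.1 and 963 at 1 week (-0.88 ± 0.074, 1.85-fold lower, adjusted p = 0.00103). Col4a1, which pairs with Col4a2 in the common type IV helix, measured 969.7, 1072, 1223, 1134 and 1012 at 1 month, against 1229.5, 1331, 1520.2, 1603 and 1632 at 1 week (-0.43 ± 0.071, 1.35-fold lower, adjusted p = 0.0191). A second Col4a1 probe set gave -0.66 (adjusted p = 0.00422), so the gap between the 2 chains depended on the probe set. Col4a5, a chain of a less widespread type IV network, measured 117, 77.0, 132, 132 and 126 at 1 month, against 159, 196, 203, 224 and 209 at 1 week, with the 1-month 5% pool lowest (-0.78 ± 0.12, adjusted p = 0.0145).

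Col4a1 and Col4a2 lie head to head and are read in opposite directions, so that their start regions in RefSeq (GRCr8) overlap by 176 bases; they are shown because the 2 genes share this stretch. Col4a1 is at chr16:84885347-84885646 on the plus strand and Col4a2 at chr16:84885471-84885770 on the minus strand, each 5′ to 3′ on its own strand. Capitals mark CCAAT or its reverse ATTGG and GGGCGG or its reverse CCGCCC; neither window holds a TATAAA.
Col4a1: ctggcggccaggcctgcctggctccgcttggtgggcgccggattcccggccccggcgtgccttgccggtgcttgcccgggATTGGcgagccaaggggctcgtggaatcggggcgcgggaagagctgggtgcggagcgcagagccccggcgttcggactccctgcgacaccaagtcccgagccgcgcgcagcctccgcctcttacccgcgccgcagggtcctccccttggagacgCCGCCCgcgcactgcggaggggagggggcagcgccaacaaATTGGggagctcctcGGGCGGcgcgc
Col4a2: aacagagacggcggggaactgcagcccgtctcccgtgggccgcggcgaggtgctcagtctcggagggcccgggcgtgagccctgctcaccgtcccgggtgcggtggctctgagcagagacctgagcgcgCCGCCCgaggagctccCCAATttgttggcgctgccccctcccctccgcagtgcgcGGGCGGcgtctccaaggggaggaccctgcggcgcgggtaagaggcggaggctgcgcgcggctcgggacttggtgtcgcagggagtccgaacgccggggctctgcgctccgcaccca
Each window held 2 GGGCGG matches, and in the overlap both windows show the same letters from opposite strands.

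Among the other collagens 6 of 8 tested genes were lower at 1 month (median -0.47). Col6a2 and Col6a3, both of type VI collagen, had the largest differences of these 8 genes. Col6a2 measured 196, 205, 253, 223 and 204 at 1 month, against 322, 439, 446, 477 and 436 at 1 week (-0.97 ± 0.080, 1.95-fold lower, adjusted p = 0.00103). Col6a3 measured 283, 268, 311, 343 and 267 at 1 month, against 483, 567, 526, 608 and 585 at 1 week (-0.91 ± 0.077, 1.88-fold lower, adjusted p = 0.00103). For both, each 1-month pool was below each 1-week pool. Col6a1, the third main chain, measured 608, 536, 717, 671 and 594 at 1 month, against 686, 850.4, 864, 937 and 919 at 1 week, and its 1-month 10% pool lay above the 1-week control (-0.44 ± 0.084, adjusted p = 0.0307).

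Col14a1 and Col12a1 encode collagens that coat the surface of fibrils, and only the first passed the test. Col14a1 measured 339.9, 289.6, 402, 417 and 314 at 1 month, against 402, 558, 578, 577 and 536 at 1 week (-0.59 ± 0.099, adjusted p = 0.0199). Col12a1 measured 40.8, 30.8, 35.0, 38.2 and 38.0 at 1 month, against 43.2, 46.3, 51.5, 36.1 and 30.1 at 1 week (-0.16 ± 0.16, adjusted p = 0.654). Col15a1 and Col18a1 encode collagens of the basement membrane zone that carry glycosaminoglycan chains, and the C-terminal piece of Col18a1 is endostatin. Col15a1 measured 545, 485, 531, 536 and 468 at 1 month, against 609, 738, 694, 676 and 698 at 1 week (-0.41 ± 0.077, adjusted p = 0.0292). Col18a1 measured 97.1, 75.0, 99.2, 85.6 and 69.4 at 1 month, against 127, 126, 130.3, 113 and 102 at 1 week (-0.50 ± 0.087, adjusted p = 0.023). Neither overlapped between durations. Col8a2, a short-chain collagen first known from the cornea, measured 69.3, 76.3, 92.2, 108 and 103 at 1 month, against 58.6, 82.6, 89.4, 91.5 and 105 at 1 week, a difference of 0.07 ± 0.090 (adjusted p = 0.724).

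**Figure D2:**
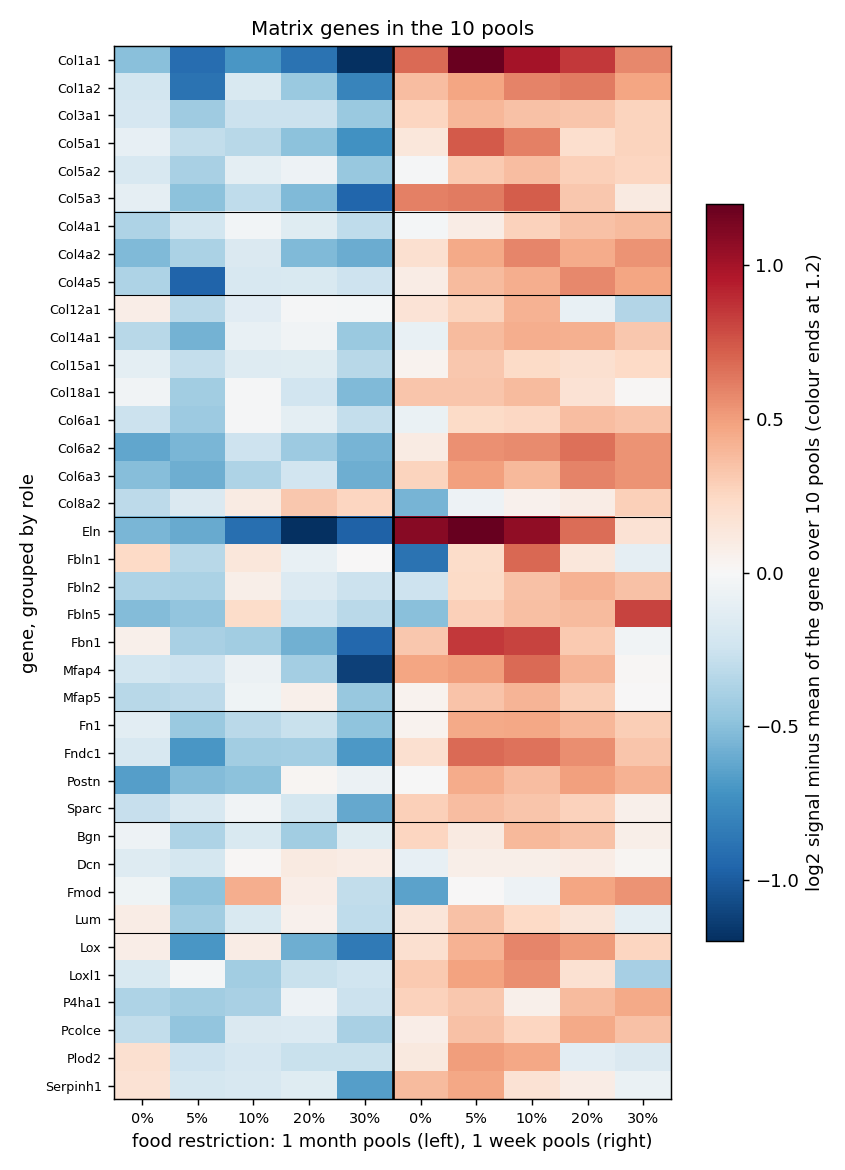
Log2 MAS5 signal of each tested matrix gene minus its mean over the 10 pools, with 1-month pools at left, 1-week pools at right, each from 0 to 30% restriction, and genes grouped by role between black lines. The left side is blue for most genes and the right side red; Dcn, Fmod, Fbln1 and Col8a2 are among the genes without that split, and the 1-week control is paler than the other 1-week pools in many rows.

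In the elastic fibre group 5 of 7 genes were lower at 1 month (median -0.53). Eln, which encodes tropoelastin, measured 64.9, 62.3, 50.6, 41.3 and 48.5 at 1 month, against 202, 222, 198, 151 and 107 at 1 week. No pool overlapped, and the gene was 3.23-fold lower (-1.69 ± 0.12, adjusted p = 0.00095). Fbn1 encodes fibrillin-1, the main microfibril protein and also the precursor of the hormone asprosin. It measured 583, 426, 418, 375 and 291 at 1 month, against 699, 1002, 981, 695 and 541 at 1 week (-0.90 ± 0.13, adjusted p = 0.0113); the 1-month control was above the 1-week 30% pool. Mfap4, a microfibril-associated protein that binds elastin and collagen, measured 178, 175, 197, 156 and 95.0 at 1 month, against 288, 293, 332, 275 and 209.6 at 1 week (-0.83 ± 0.082, adjusted p = 0.00266).

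Mfap5, a small microfibril glycoprotein, measured 505, 512, 614, 664 and 465 at 1 month, against 657, 809.6, 842, 781 and 639.9 at 1 week (-0.44 ± 0.071, adjusted p = 0.0177). The fibulins, which link elastin, microfibrils and basement membranes, differed among themselves. Fbln2 measured 288, 286, 391, 333 and 311 at 1 month, against 313, 438, 474, 497 and 476 at 1 week (-0.44 ± 0.088, adjusted p = 0.0351). Fbln5, needed for elastic fibre assembly in mice, measured 70.4, 72.7, 118, 85.6 and 80.6 at 1 month, against 71.3, 123, 129.8, 131 and 177 at 1 week, and did not pass (-0.53 ± 0.15, adjusted p = 0.105). The controls of the 2 durations were nearly equal for Fbln2 and Fbln5, and each restricted pool was lower at 1 month than at 1 week. For Fbln5 the 10% pair was close (118 against 129.8). The 1-week control is the pool with a pancreas sum of 66192, and the part of its composition was not tested. Fbln1 measured 44.8, 30.2, 41.7, 35.6 and 38.2 at 1 month, against 20.6, 44.1, 61.2, 41.7 and 35.2 at 1 week (-0.02 ± 0.23, adjusted p = 0.979), with its lowest pool in the 1-week control.

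All 4 tested adhesive and matricellular genes were lower at 1 month (median -0.67). Fn1, encoding fibronectin, on which cells organise newly made collagen, measured 542, 436, 474, 492 and 425 at 1 month, against 609, 814, 820.3, 779.6 and 727 at 1 week (-0.66 ± 0.10, adjusted p = 0.0145). Fndc1, a protein with fibronectin type III repeats, measured 130.2, 91.6, 111, 112 and 92.0 at 1 month, against 169.8, 238, 233, 219 and 187 at 1 week (-0.97 ± 0.13, adjusted p = 0.00756). For both, the 1-week control was the lowest 1-week pool and still above each 1-month pool. Sparc, a collagen-binding glycoprotein that in mice restrains adipogenesis, measured 1814, 1929, 2129, 1905 and 1436 at 1 month, against 2687, 2848, 2776, 2672 and 2289 at 1 week (-0.53 ± 0.061, adjusted p = 0.00422). Postn, encoding periostin, a collagen-binding protein of tissues under load or repair, measured 590.2, 650.4, 664, 948 and 892 at 1 month, against 930.4, 1273, 1208, 1317 and 1247 at 1 week (-0.69 ± 0.085, 1.61-fold lower, adjusted p = 0.00643). Its 1-month 20% pool was just above the 1-week control, so the pools overlapped.

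The start region of Postn is shown since it holds a TATAAA close to the start (capitals, at -44) and no CCAAT or GGGCGG, whereas those of Col4a1 and Col4a2 hold both. It lies at chr2:140677811-140678110, plus strand (RefSeq, GRCr8), 5′ to 3′.
Postn: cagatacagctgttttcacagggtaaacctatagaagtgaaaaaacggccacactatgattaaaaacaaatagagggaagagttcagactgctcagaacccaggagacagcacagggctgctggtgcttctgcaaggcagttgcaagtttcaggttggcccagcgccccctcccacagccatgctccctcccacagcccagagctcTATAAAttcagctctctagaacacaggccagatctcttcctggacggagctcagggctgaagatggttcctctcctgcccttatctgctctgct
Of the 38 matched genes 4 had a TATAAA anywhere in the window, Col1a2 and Postn being the ones among those lower at 1 month.

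The small leucine-rich proteoglycans, which bind to collagen fibrils and set their spacing, had 1 of 4 genes lower at 1 month (median -0.22). Dcn, encoding decorin, measured 2889, 2766, 3245, 3449.9 and 3408 at 1 month, against 3004, 3367, 3377, 3409 and 3252 at 1 week, a difference of -0.06 ± 0.065 (adjusted p = 0.666). Its 10 pools spanned a narrow range and those of the 2 durations were interleaved. Bgn, encoding biglycan, measured 290.4, 234, 267, 226 and 273 at 1 month, against 360.4, 326, 396, 385 and 317 at 1 week, and was the called gene (-0.47 ± 0.087, adjusted p = 0.0291). Lum, encoding lumican, measured 725, 508, 598, 705 and 552 at 1 month, against 752, 867, 802, 756 and 626 at 1 week (-0.31 ± 0.10, adjusted p = 0.154). Fmod, encoding fibromodulin, measured 386, 287, 543, 424 and 327 at 1 month, against 256, 401, 385, 555 and 584 at 1 week (-0.12 ± 0.20, adjusted p = 0.803). Fmod was higher at 1 month in the control and 10% pools and lower in the other 3 pairs.

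Of the 6 genes of collagen maturation 4 were lower at 1 month (median -0.52). P4ha1, a catalytic subunit of the prolyl hydroxylase that stabilises the triple helix, measured 144, 138, 142, 177 and 155 at 1 month, against 225, 231, 193, 240.3 and 254 at 1 week (-0.60 ± 0.077, adjusted p = 0.00747). Pcolce, which speeds removal of the C-terminal propeptide of procollagen, measured 170.5, 151, 186, 187 and 160.3 at 1 month, against 222, 268, 250.2, 287 and 267 at 1 week (-0.60 ± 0.085, adjusted p = 0.0107). Neither gene overlapped between the durations. Lox, the lysyl oxidase that starts the cross-linking of collagen and elastin, measured 97.1, 56.8, 98.0, 61.4 and 51.2 at 1 month, against 105, 123, 138, 131 and 109.9 at 1 week (-0.78 ± 0.15, adjusted p = 0.0337). Serpinh1, the collagen chaperone HSP47 of the endoplasmic reticulum, measured 1076, 822, 837, 864 and 602 at 1 month, against 1239, 1314, 1075, 1016 and 901 at 1 week (-0.41 ± 0.082, adjusted p = 0.0343). Its 1-month control lay above 3 of the 1-week pools. Loxl1, the lysyl oxidase needed for elastic fibre upkeep in mice, measured 90.4, 101, 77.1, 85.7 and 87.1 at 1 month, against 128, 144, 152, 117 and 77.9 at 1 week, and did not pass (-0.45 ± 0.14, adjusted p = 0.127). Plod2, which hydroxylates lysines of collagen telopeptides, also did not pass (-0.31 ± 0.14, adjusted p = 0.274), with 64.0, 47.1, 48.5, 46.5 and 46.4 at 1 month, against 60.7, 78.8, 77.0, 51.0 and 49.5 at 1 week.

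The gap between durations was present at each level of restriction and in the controls. The median member difference, 1 month minus 1 week, was -0.33 in the control pair, -0.76 at 5%, -0.56 at 10%, -0.54 at 20% and -0.71 at 30%, with 34, 38, 36, 35 and 34 of the 38 genes lower. At all 5 levels together 31 of 38 genes were lower at 1 month, against 10.2% of all probe sets tested. By the rule for single pools (each of the 4 chip-to-chip differences of the same sign and a difference of at least 1.5-fold, with no p-value), 10 members were lower and 2 higher at 1 month in the control pair, where 2.67% and 2.72% of all probe sets were lower and higher. The 2 higher genes were Fbln1 and Fmod, and the 1-week control signal of Fbln1 was under the filter cut for mean signals (23.84). The same rule gave 30 members lower in the 5% pair (5.08% of all), 17 in the 10% pair (9.3%), 18 in the 20% pair (5%) and 25 in the 30% pair (3.82%). None was higher in these 4 pairs, where 3.36%, 2.12%, 2.61% and 4.79% of all probe sets were higher. The control pair, the one with the smallest difference, includes the 1-week control pool, which carried pancreas transcripts; their part in this result was not tested.

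The duration result was read on other probe sets and on other scales. Of 10 member genes with a second tested probe set, each second probe set had a negative difference and 9 passed an adjusted p of 0.05 (limma). The 1 that did not pass was that of Lox (-0.59, adjusted p = 0.0969). The largest gap between the 2 probe sets of a gene was 0.22. On the scale as deposited 27 members were lower and 0 higher, while over all probe sets the split of calls turned to 148 lower and 306 higher, against 192 lower and 76 higher with each chip at the same trimmed mean. With chips centred on their median, 25 members passed as lower, where 135 of all probe sets did. Without the 2 pools with pancreas genes 14 members passed, Col1a1, Col3a1 and Eln among them, where 32 of all probe sets did. In that fit 37 of 38 member differences were negative, 34 of them at an unadjusted p under 0.05 (limma). Leaving out any single pool gave 14 to 26 members, where 52 to 122 of all probe sets passed as lower, against 192 with all pools. The count was 14 without either 10% pool, 16 without either 20% pool and 18 and 17 without the 1-month and 1-week 5% pool. All 29 called genes kept their sign under each of the 22 alternatives. The calls of Col1a1, Col1a2, Col3a1, Col5a3, Col4a2, Col6a2, Col6a3, Eln, Mfap4 and Postn held in all 22, and 13 of the 29 calls held whichever single pool was left out. Those of Serpinh1 and Col18a1 were lost whichever of the 10 pools was left out, and those of Bgn, Lox, Col5a2, Col6a1, Col14a1, Col15a1 and Fbln2 held in 2 of the 10 such fits. Level was a factor in this comparison, so leaving out 1 pool also left its partner at that level without a match. Both fits of a level therefore gave the same differences, and the 10 fits are not 10 separate checks.

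Fibroblast markers outside the matrix genes were read beside this result. Their summed signal over 9 genes was 5577 to 6585 at 1 month and 5705 to 6927 at 1 week, and their mean log2 signal was 7.85 to 8.21 at 1 month and 8.20 to 8.45 at 1 week (difference -0.30). Of the 9, 8 differences were negative and 3 passed: Cd248 (-0.92, adjusted p = 0.00747), Thy1 (-0.64, adjusted p = 0.0343) and Pi16 (-0.44, adjusted p = 0.0484). Of 7 endothelial markers 6 differences were negative and 1 passed, with a mean log2 signal of 6.75 to 7.06 at 1 month and 7.11 to 7.31 at 1 week, so that the pools did not overlap (difference -0.33). Of 8 smooth muscle and pericyte markers 0 passed in either direction. Of 7 adipocyte markers 3 differences were negative (median 0.06), and the 1 that passed was Lep, a hormone gene, which was higher at 1 month (0.98 ± 0.13, adjusted p = 0.00756). The part of cell composition in the matrix result was not tested.

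The second question was whether matrix genes followed the degree of restriction. A slope of log2 signal per 10% of restriction, shared by both durations, passed for 7 of the 38 members (5 fell, 2 rose), against 9.4% of all probe sets (3.69% fell and 5.71% rose). The median slope of the members was -0.02, against -0.01 over all probe sets tested, and at an unadjusted p under 0.05 there were 11 falling and 3 rising members, where 15.9% and 14.3% of all probe sets fell and rose. The falling genes were Eln, Fbn1, Mfap4, Col5a3 and Serpinh1, of which 3 belong to the elastic fibre, and the rising genes were Col8a2 and Postn.

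**Figure D3:**
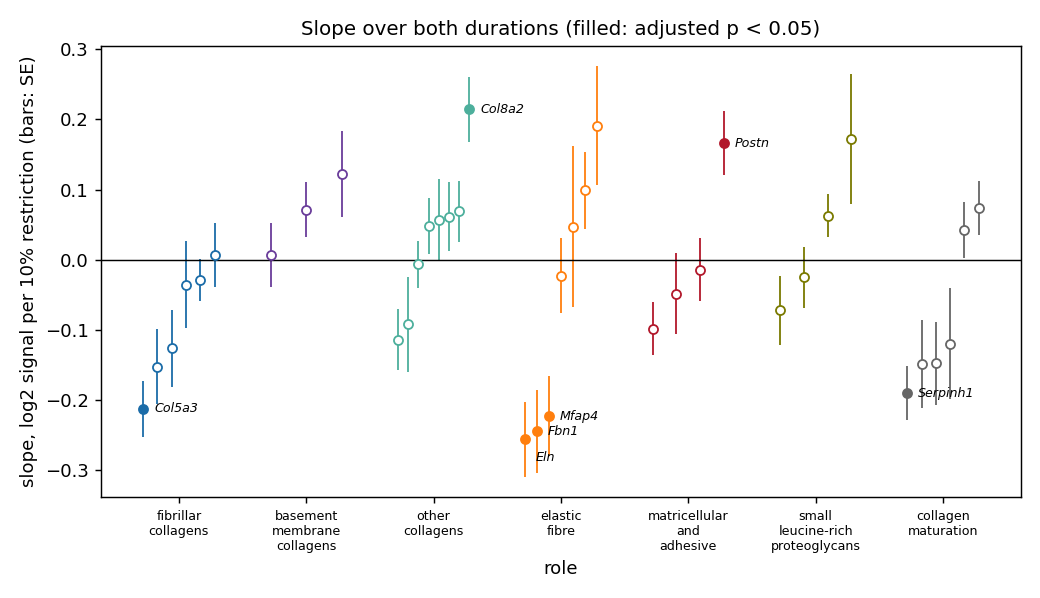
Slope of log2 MAS5 signal per 10% of food restriction, fitted over both durations, for the 38 tested matrix genes by role; bars are the standard error of the limma fit over 10 pools and filled points passed an adjusted p of 0.05. Filled points are named: 5 lie below 0, down to -0.26 for Eln, and 2 above it, up to 0.21 for Col8a2.

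Eln fell by 0.26 per 10% of restriction (SE 0.053, adjusted p = 0.017), which is 1.71-fold lower at 30% than at 0. From the pool values above, the 30% pool was the lowest at 1 week, and at 1 month the 20% pool was lowest. Fbn1 had a slope of -0.24 ± 0.059 (adjusted p = 0.0291, 1.66-fold lower at 30%), and its signal went down at each step at 1 month, while at 1 week the 5% and 10% pools were above the control. A second Fbn1 probe set had the same slope (-0.25, adjusted p = 0.0162). Among the 10 genes with a second tested probe set, that of Col5a1 also fell (-0.21, adjusted p = 0.0279), while the one used here did not pass (-0.13 ± 0.055, adjusted p = 0.148). Mfap4 had a slope of -0.22 ± 0.057 (adjusted p = 0.0344, 1.59-fold lower at 30%), with the 30% pool lowest at both durations. Col5a3 had a slope of -0.21 ± 0.040 (adjusted p = 0.0115, 1.56-fold lower at 30%). Its 20% and 30% pools were the lowest at either duration. Serpinh1 had a slope of -0.19 ± 0.038 (adjusted p = 0.0154, 1.49-fold lower at 30%), and its 30% pool was likewise lowest at both durations.

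Col8a2 rose with restriction, with a slope of 0.21 ± 0.046 (adjusted p = 0.0201, 1.56-fold higher at 30%). Each restricted pool exceeded the control of its duration, and Col8a2 was also the 1 member called when the 8 restricted pools were set against the 2 controls (0.54 ± 0.14, adjusted p = 0.0442; 5.93% of all probe sets were called, 4.34% higher and 1.6% lower). That second call was kept without the 1-week 5% or the 1-month 5% pool and lost without any other pool. Postn had a slope of 0.17 ± 0.046 (adjusted p = 0.0455, 1.41-fold higher at 30%). Its steps differed between durations: at 1 month the 20% and 30% pools were above the rest, and at 1 week all restricted pools were above the control. Postn thus rose with restriction and was lower at 1 month, while Eln, Fbn1, Mfap4, Col5a3 and Serpinh1 were lower on both counts. The slope call of Postn held in 7 of the 22 alternatives described below. The fibrillar type I and III chains did not pass, with slopes of -0.15 ± 0.053 for Col1a1 (adjusted p = 0.0894), -0.04 ± 0.062 for Col1a2 (adjusted p = 0.74) and -0.03 ± 0.030 for Col3a1 (adjusted p = 0.548).

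**Figure D4:**
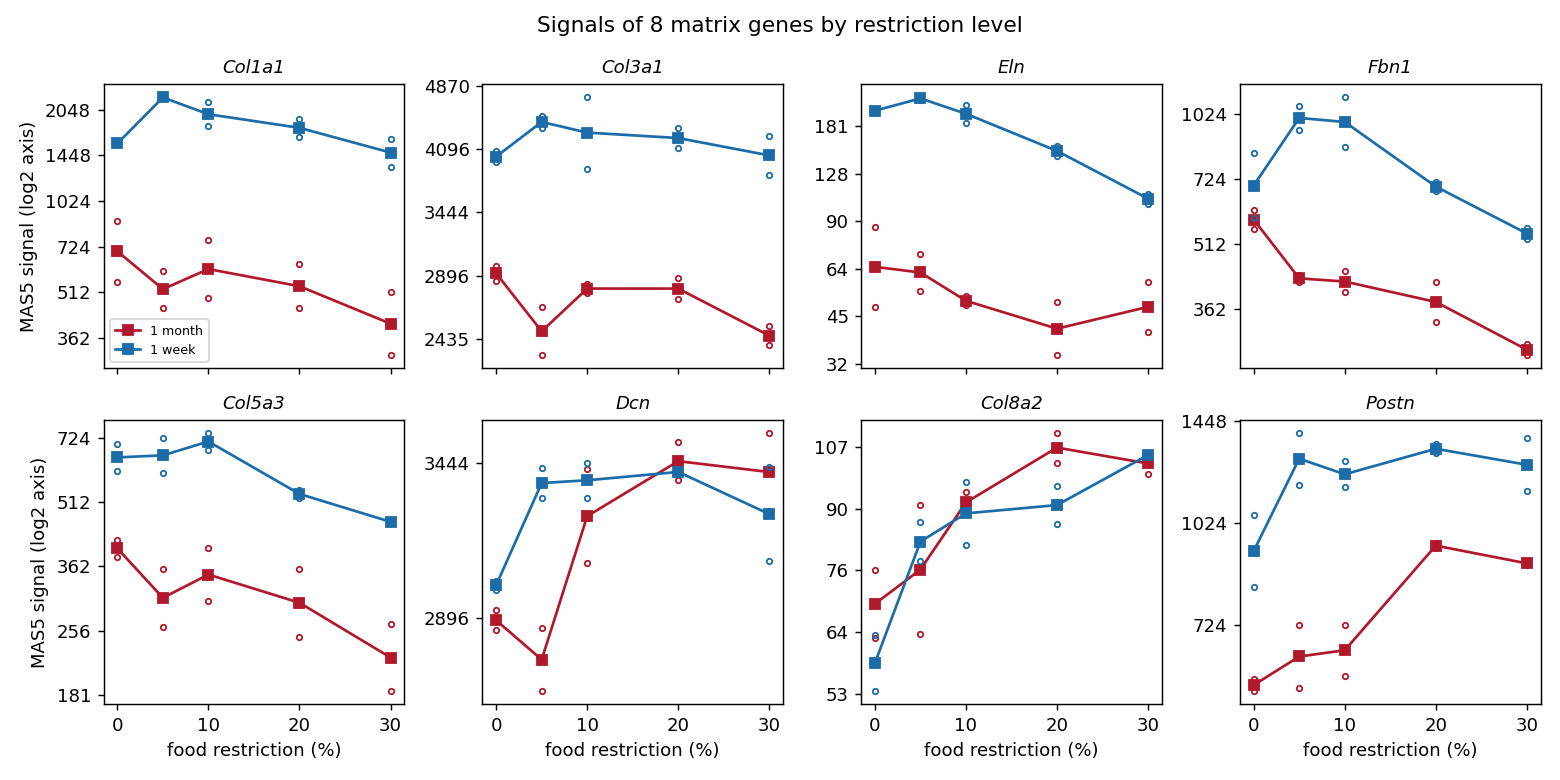
MAS5 signal (log2 axis) against food restriction for 8 matrix genes at 1 month (red) and 1 week (blue); squares are pool values joined by lines and open circles are the 2 chips of each pool. Red lies below blue throughout for Col1a1, Col3a1, Eln, Fbn1, Col5a3 and Postn, while the durations cross for Dcn and Col8a2; Eln, Fbn1 and Col5a3 run downwards with restriction and Col8a2 and Postn upwards.

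The 7 slopes kept their sign under all 22 alternatives, with ranges of -0.34 to -0.18 for Eln, -0.32 to -0.17 for Fbn1, -0.32 to -0.14 for Mfap4, -0.26 to -0.16 for Col5a3, -0.22 to -0.16 for Serpinh1, 0.16 to 0.25 for Col8a2 and 0.14 to 0.22 for Postn. Their calls rested on few pools. Of the 22 alternatives the call held in 19 for Col5a3, 18 for Serpinh1 and for Eln and 16 for Col8a2. It held in 13 for Fbn1, 12 for Mfap4 and 7 for Postn. In the 10 fits with 1 pool left out it held in 8 for Col5a3, Serpinh1 and Eln and 7 for Col8a2. In those fits it held in 4 for Fbn1 and Mfap4 and in 2 for Postn. Without the 2 pools with pancreas genes 0 members were called in either direction, and of all probe sets 15 were past the threshold, against 895 with all pools. Without the 1-month control or without the 1-week 30% pool 0 fell, and without the 1-week control 7 fell. Over all 9520 probe sets 39, 26 and 81 fell in these fits, against 351 with all pools. Without the 1-month 30%, the 1-week 5% or the 1-week 20% pool 3 fell, where 854, 188 and 155 of all probe sets fell. None rose without the 1-month control, the 1-week control or the 1-week 30% pool, where 121, 174 and 84 of all probe sets rose, against 544 with all pools. Without the 5% or 20% pool of 1 month 1 rose (381 and 312 of all), as it did without the 10% or 20% pool of 1 week (487 and 287 of all). Without the 1-month 30% pool 4 rose (787 of all). With the lymphocyte score as a covariate 4 fell and 0 rose, where 81 of all probe sets fell and 112 rose. The lymphocyte markers were lower in most restricted pools than in the controls of their duration, with summed signals of 2299, 187, 192 and 1110 in the 1-month 5, 10, 20 and 30% pools, against 2268 in the 1-month control, and of 1371, 586, 805 and 169 in the 1-week pools, against 2509 in the 1-week control. Of the 9 fibroblast markers 5 had negative slopes (median -0.06), and the 1 that passed was Cd248, which fell (-0.38 ± 0.063, adjusted p = 0.00763).

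Slopes at a single duration did not pass for any member. At 1 month 0 members were called, where 0.126% of all probe sets were (0.0945% rising, 0.0315% falling), and at an unadjusted p under 0.05 there were 8 members with negative and 3 with positive slopes, where 6.5% and 6.69% of all were. At 1 week 0 members were called, where 0.294% of all probe sets were (0.221% rising, 0.0735% falling), and the unadjusted counts were 6 negative and 4 positive, where 9.61% and 10.5% of all were. The difference between the 2 slopes passed for 0 members and for 0 of the 9520 probe sets (limma), and at an unadjusted p under 0.05 there was 1 member of 38, Fmod, where 2.96% of all probe sets were, so that the share was near the background. Fmod had a slope of -0.02 at 1 month and 0.36 at 1 week, a difference of -0.38 ± 0.16 (unadjusted p = 0.033 from the limma fit).

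Set against the control pool of its own duration, each restricted pool had a few members past the 1.5-fold rule. All 4 restricted pools of a duration share that control, so their counts are not independent. At 1 month the 5% pool had 3 members lower (Col1a2, Col4a5 and Lox) and 0 higher, where 3.25% and 2.44% of all probe sets were lower and higher. The 10% pool had Fbln5 higher and none lower (6.22% higher and 13.4% lower among all). The 20% pool had Col8a2 and Postn higher, and Fbn1 and Lox lower (6.23% and 10.1% among all). The 30% pool had 7 members lower, namely Col1a1, Col5a1, Col5a3, Fbn1, Mfap4, Lox and Serpinh1, and Postn higher (7.84% lower and 5.33% higher among all).

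At 1 week most members past the rule were higher than the control. Fbln1, Fbln5 and Fmod were higher than the control in all 4 restricted pools, Fbln2 and Col8a2 in the 10, 20 and 30% pools, and Col5a1 in the 5% pool. This made 4 members higher at 5% and 5 at 10, 20 and 30%, where 4.46%, 7.14%, 7.04% and 9.3% of all probe sets were higher. For Fbln1 the control signal was under the filter cut for mean signals (23.84), so its folds rest on a low value. Members lower than the control were seen at 30% alone, Eln and Loxl1, where 11.6% of all probe sets were lower, against 4.23%, 7.06% and 8.61% in the 5, 10 and 20% pools. The median member difference from the control was -0.20, 0.03, -0.03 and -0.22 at 5, 10, 20 and 30% after 1 month, and 0.27, 0.33, 0.25 and 0.13 after 1 week. All 1-week values share the control pool with a pancreas sum of 66192, and the part of that pool's composition was not tested.

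The members varied together to different degrees. After each gene's mean at each duration was taken off, the median correlation over the 10 pools was 0.42 for all 703 pairs of tested members, 0.70 for the fibrillar collagens (0.36 to 0.89) and 0.60 for the other collagens, against 0.13 for the small leucine-rich proteoglycans and 0.02 for the maturation genes. The pools share scale and cell composition, so this is a description. The closest pairs were Fbln2 with Col6a2 (r = 0.98) and Fn1 with Fndc1 (r = 0.96), and the most opposed was Eln with Col8a2 (r = -0.76). Col1a1 followed Col3a1 (r = 0.88) more closely than its helix partner Col1a2 (r = 0.65), and Col4a1 and Col4a2 had r = 0.76; these correlations were not tested against each other.

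Matrix genes outside the collagen and elastic fibre set were compared through lists. Of the other genes of the basement membrane 4 of 9 tested were lower at 1 month and 9 of 9 differences were negative (median -0.27). The 4 comprise 2 of 7 laminin chains and nidogens and both tested heparan sulfate proteoglycans, Hspg2 and Agrn. Nid2, encoding nidogen-2, which bridges laminin and type IV collagen, measured 429.6, 455, 501, 486 and 457 at 1 month, against 665, 872, 778, 885 and 964 at 1 week (-0.83 ± 0.079, adjusted p = 0.00229). Lamc1, a laminin gamma chain, had a difference of -0.52 ± 0.080 (adjusted p = 0.0145). Hspg2, encoding perlecan, had one of -0.66 ± 0.069 (adjusted p = 0.00298) and Agrn, encoding agrin, one of -0.44 ± 0.093 (adjusted p = 0.0424). Against the controls, 3 laminin chains were higher in the restricted pools, namely Lama4 (0.48, adjusted p = 0.0339), Lamb1 (0.43, adjusted p = 0.0384) and Lamb2 (0.42, adjusted p = 0.0458), and Lamb1 also rose with the level (0.15 per 10%, adjusted p = 0.0472).

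Further elastic fibre genes were lower at 1 month in 2 of 8 cases, Mfap2 (-0.86 ± 0.12, adjusted p = 0.00858), encoding a microfibril glycoprotein related to Mfap5, and Ltbp4 (-0.50 ± 0.10, adjusted p = 0.0378), encoding a binding protein of latent TGF-beta. Of 10 other enzymes and helpers of collagen maturation 0 passed, with 10 of 10 differences negative and a median of -0.19. Of 10 further matricellular and proteoglycan genes 0 passed between durations, while Omd, encoding osteomodulin, rose with restriction (0.32 ± 0.062 per 10%, adjusted p = 0.0122). Omd (0.85, adjusted p = 0.0242) and Prelp (0.52, adjusted p = 0.0283), both small leucine-rich proteins, were also higher in the restricted pools than in the controls. Calls of restricted against control pools rest on 2 control pools: over all probe sets they numbered 565 with all pools, 27 without the 1-month control and 6 without the 1-week control, and those of the laminin chains, Omd and Prelp were not followed one by one. Collagen receptors (0 of 5, median 0.00) and genes of TGF-beta signalling (0 of 9, median -0.10), the pathway best known for raising collagen transcription, had no call between durations in either direction. Of the 9 TGF-beta differences 8 were negative, and of the 5 receptor differences 2 were. The largest of the TGF-beta genes was that of the ligand gene Tgfb1 (-0.73 ± 0.19, limma adjusted p = 0.0835). Tgfb1 also had a slope of -0.35 ± 0.12 per 10% of restriction (adjusted p = 0.0748).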

How the data were processed

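The authors deposited MAS5 signal intensity values on a linear scale for 20 chips (Rat Expression Set 230, array A). The trimmed mean (trim 0.02) as deposited was 98.45 and 98.1 for the first and second chips at 1 month, and 77.74 and 111.7 at 1 week. Each chip was here scaled to a trimmed mean of 100, signals under 1 were set to 1 (0.769% to 3.75% of values), log2 was taken and the 2 chips of a pool were averaged. Of 15923 probe sets, 57 controls were left out, and 9520 passed a filter at the 40th percentile of mean signal (23.84) and were tested. Probe sets were named through the platform annotation (12783 with 1 symbol, 312 with several, 2771 with none). limma 3.58.1 in R 4.3.3 (lmFit, eBayes with an intensity trend, two-sided, Benjamini-Hochberg, 0.05) was fitted over the 10 pools: slopes per 10% of restriction, restricted against control, and 1 month minus 1 week with level as a factor. The number of pools, 1 per group, limits the precision, since the 2 chips of a pool are technical repeats. Detection calls were not used. Steps were tested on simulated data.

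Members and lists were chosen with earlier results of these data known. Values are given for each called gene and for the 2 of largest slope and duration difference in each role; lists give up to 4 called genes. Alternatives covered chip scale, filter, floor, variance trend, single chips, a replicate block, left-out pools, lymphocyte score, probe set and fold minimum.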

Additional observations from a re-analysis of the deposited data

How the results depend on the processing

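The number of matrix genes called lower at 1 month (29 of 38) was 16 without the intensity trend and 14 without the 2 pools with pancreas genes. It was 16 to 28 with a single chip of each pool and 14 to 26 with 1 pool left out, and lowest without either 10% pool. Over all probe sets the lower calls, 192 in the main fit, numbered 68, 32, 42 to 243 and 52 to 122 in the same order. Genes falling with restriction (5) numbered 0 without the pools with pancreas genes, 3 to 4 with a single chip and 0 to 7 with 1 pool left out. Over all probe sets falling calls (351) numbered 4, 213 to 225 and 26 to 1008 in that order. Genes rising (2) numbered 1 with quantile normalization, 1 without a filter, 1 without the intensity trend, 0 without the pools with pancreas genes, 0 with the lymphocyte score as a covariate, 0 to 1 with a single chip and 0 to 4 with 1 pool left out. Rising calls over all probe sets (544) numbered 591, 412, 412, 11, 112, 344 to 383 and 84 to 913 in that order. With chips centred on their median, 657 probe sets rose and 272 fell with restriction, against 544 and 351. For slopes at a single duration (0 called), the lymphocyte covariate gave 1 falling gene at 1 month, and leaving out 1 pool gave 0 to 1 falling at 1 week. With that covariate 27 of all probe sets fell at 1 month, against 3 in the main fit. The 1 falling gene at 1 week was seen without the 1-month 10% or 30% pool. In these fits 98 and 20 of all probe sets fell at 1 week, against 7 in the main fit. For restricted against control pools (1 higher) the count was 0 without a filter, without the intensity trend, without the pools with pancreas genes and with the lymphocyte covariate, 0 to 0 with a single chip and 0 to 5 with 1 pool left out (5 without the 1-month 5% pool). Over all probe sets the higher calls (413) numbered 287, 227, 5, 59, 210 to 324 and 5 to 1012 in that order.

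A replicate number marks a chip of the same pooled RNA, not a second animal sample, and same-numbered chips of a duration shared their deposited scale. With the replicate number as a block and the pool as a random block over 20 chips, 30 genes were lower at 1 month, 7 fell and 2 rose with restriction, 4 fell and 1 rose at 1 month, 3 fell and 3 rose at 1 week, and 6 were higher in restricted than in control pools; the whole array then gave 895 rising and 834 falling slopes, against 544 and 351. It also gave 502 probe sets lower and 380 higher at 1 month, against 192 and 76, and 914 higher and 781 lower in restricted than in control pools, against 413 and 152. At a single duration it gave 184 rising and 80 falling at 1 month, against 9 and 3, and 450 rising and 248 falling at 1 week, against 21 and 7.

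In single pools against their control, members past the rule, both directions together, at the 1.2-fold, 1.5-fold and 2-fold minimum numbered 14, 3 and 0 (5%), 10, 1 and 0 (10%), 14, 4 and 0 (20%) and 16, 8 and 1 (30%) at 1 month, and 19, 4 and 1 (5%), 19, 5 and 1 (10%), 19, 5 and 2 (20%) and 25, 7 and 2 (30%) at 1 week. At 1.2-fold between 26.0% and 48.8% of all probe sets were past the rule in either direction, at 1.5-fold between 5.68% and 20.9%, and at 2-fold between 1.04% and 6.72%. At 1.2-fold the share of members was below that of all probe sets in the 1-month 10% pool (26.3%, against 47.7%) and 20% pool (36.8%, against 45.1%). It was above in the 1-month 5% pool (36.8%, against 26.0%) and 30% pool (42.1%, against 38.9%). At 1 week it was above in each restricted pool: 50%, 50%, 50% and 65.8% at 5, 10, 20 and 30%, against 33.8%, 41.4%, 43.15% and 48.8%. Each called member kept its sign between durations and in its slope. The balance of calls turned over all probe sets for duration on the deposited scale (148 lower and 306 higher, against 192 and 76), and for member slopes without the 1-month 30% pool (3 falling and 4 rising, against 5 and 2). Without counts of molecules, low signals limit the 13 genes that were not tested.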
